A study of Mus musculus with 6 samples.

Results

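Genes of the endoplasmic reticulum (ER) chaperone and stress response system were followed in RNA pulled down with ribosomes that carry phosphorylated ribosomal protein S6. The tissue was the vomeronasal organ, and the mice were males of the CD-1 stock. The 10 genes were taken by name: the chaperones and folding enzyme Hspa5, Hsp90b1, Calr and Pdia4, the transcription factors Xbp1, Atf4, Atf5 and Ddit3, and the stress response genes Herpud1 and Trib3. All 10 were found among the 38561 genes counted, and all 10 were among the 15498 genes with enough counts to be tested. Pup exposure was represented by 3 libraries, and so was a control exposure that the labels do not describe further. Age and the number of mice per library are not stated, and CD-1 is outbred. Since nothing in the labels ties each library to its own mice, p-values here speak of variation among libraries that could be technical. RNA from before precipitation was not analysed here.

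The ER folds membrane and secreted proteins, and vomeronasal neurons and nasal glands both make large amounts of them. When unfolded protein accumulates, the sensors IRE1 (gene Ern1), PERK (Eif2ak3) and ATF6 (Atf6) start the unfolded protein response. IRE1 splices Xbp1 mRNA and ATF6 is cut to an active fragment, and the resulting factors switch on chaperone genes. PERK slows general translation while the mRNAs of Atf4 and Atf5 escape that block, and ATF4 then drives Ddit3 (which encodes CHOP) and Trib3. In mouse olfactory neurons this PERK branch also takes part in the choice of odorant receptor, with ATF5 as its factor. A count per gene cannot show Xbp1 splicing, and RNA on phosphorylated ribosomes reflects both RNA level and ribosome state.

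The libraries held 18199476 to 20871266 counts after pup exposure and 10590716 to 11240065 after control exposure. The most abundant gene, Obp2a, which encodes an odorant-binding protein of nasal glands, took 9.38% (pup exposure replicate 2) to 26.0% (control exposure replicate 3) of a library. These 2 libraries lay at opposite ends of the second principal component and pup exposure replicate 1 stood apart on the first, so values are given per library. Olfactory marker protein (Omp), which marks mature sensory neurons, was at 664 to 831 CPM (counts scaled to library size) after pup exposure and 768 to 922 CPM after control exposure. Of 5 mature vomeronasal neuron markers tested, Omp among them, 3 had a positive log2 fold change (pup exposure over control exposure) and 2 a negative one. They ran from -0.62 to 1.07 with a median of 0.68. Without overlap between groups 2 were higher, against 10.1% of all genes. Trpc2, the defining channel of vomeronasal neurons, was not matched to a row. The 10 genes together took 0.282% to 0.384% of counts after pup exposure and 0.170% to 0.467% after control exposure.

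The members differ in the control elements near their start sites. These elements were already known from genes of the ER stress response, so a match in such a gene is no independent test. Promoter windows of 300 bases (250 before and 50 after the RefSeq start, GRCm38.p6) were found for all 10 genes and searched on both strands for 4 motifs. These were the ER stress response element ERSE (CCAAT, any 9 bases, CCACG), its shorter form ERSE-II (ATTGG, any 1 base, CCACG), the unfolded protein response element UPRE (TGACGTGG) and the C/EBP-ATF response element CARE (TGATGNAA). ERSE and ERSE-II are known sites of ATF6 and XBP1 with the CCAAT-binding factor NF-Y, UPRE is a site of XBP1, and CARE is a site of ATF4. ERSE, ERSE-II and UPRE share the letters CCACG, read as CGTGG in reverse. ERSE occurred in Hspa5, Hsp90b1 and Calr, ERSE-II in Herpud1, and CARE in Herpud1 and Trib3. The matches in these genes are shown because they are all that the search found in the members. They run 5′ to 3′ on the gene's strand, with the fixed motif letters in capitals and 5 bases on each side:
Hspa5 ERSE, chr2:34772020-34772048, plus strand: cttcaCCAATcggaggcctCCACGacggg
Hsp90b1 ERSE, chr10:86705633-86705661, minus strand: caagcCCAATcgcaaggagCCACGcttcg
Hsp90b1 ERSE in reverse, chr10:86705528-86705556, minus strand: gagtgCGTGGtgaggcacgATTGGtgagt
Calr ERSE in reverse, chr8:84847070-84847098, minus strand: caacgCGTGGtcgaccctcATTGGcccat
Calr4 ERSE in reverse, chr4:109218233-109218261, plus strand: cagctCGTGGtccccaaccATTGGctgca
Herpud1 ERSE-II, chr8:94386372-94386392, plus strand: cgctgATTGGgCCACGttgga
Herpud1 CARE in reverse, chr8:94386312-94386329, plus strand: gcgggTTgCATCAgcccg
Trib3 CARE in reverse, chr2:152344034-152344051, minus strand: caggtTTaCATCAgccgg

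The Hspa5 element ended 46 bases before the RefSeq start, and the 2 Hsp90b1 elements ended 193 and 88 bases before theirs. The Calr element ended 143 bases before the RefSeq start and the Herpud1 ERSE-II 41 bases before it, while the Trib3 match began 14 bases after the RefSeq start. GENCODE starts differ. The Hspa5 stretch lies inside the GENCODE gene, which begins at 34771970 on the plus strand. The Trib3 stretch lies before the GENCODE gene, which begins at 152344032 on the minus strand. Calr4, a relative of calreticulin described in mouse vomeronasal neurons, is shown beside Calr because its window held the same element; that RefSeq start lies upstream of the GENCODE start of the gene, 109234485. Of all 32851 promoter windows, 0.119% held ERSE, 0.0365% ERSE-II, 0.676% UPRE and 3.97% CARE. ERSE stood in 3 of 10 members, and also in 5 of the 20 other ER chaperone and folding genes with a window (Calr4, Canx, Creld2, Dnajc3 and Pdia6). CARE stood in 2 of 10 members and in 9 of the 23 ATF4 and CHOP target genes with a window, Asns, Chac1 and Atf3 among them. None of the 4 motifs was found in these letters in the windows of Pdia4, Xbp1, Atf4, Atf5 or Ddit3. A match is a run of letters and not a measured binding site.

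Levels of different genes were compared per kilobase of exon (RPKM). The 10 genes fell into 3 tiers that did not touch within any library. Calr, Herpud1, Hspa5 and Hsp90b1 formed the top tier, with Calr at 274 ± 50.5 RPKM after pup exposure and 349 ± 66.8 RPKM after control exposure (SD, n = 3 each). Atf4, Atf5, Xbp1, Ddit3 and Pdia4 formed the middle tier, and Trib3 was alone at the bottom with 2.81 ± 1.75 RPKM after pup exposure and 7.03 ± 4.16 RPKM after control exposure (SD, n = 3 each). Across libraries, the lowest value of the top tier was 134 RPKM (Herpud1, pup exposure replicate 1), against a highest value of 116 RPKM in the middle tier (Atf4, control exposure replicate 3). That gap across libraries depended on the scaling. With library totals only, Herpud1 had 167 CPM in control exposure replicate 3 and Atf5 had 199 CPM in pup exposure replicate 3. Their exon lengths are similar, 1952 and 1993 bases, so the top and middle tiers then touched across libraries. The lowest middle value was 26.5 RPKM (Pdia4, pup exposure replicate 1), against a highest Trib3 value of 11.8 RPKM. Within the top tier and within the middle tier, neighbours in the order of means overlapped in their values over all 6 libraries. After control exposure alone, the lowest Ddit3 value (47.1 RPKM) lay just above the highest Pdia4 value (46.2 RPKM), both in replicate 1. The order of means was Calr, Hspa5, Hsp90b1, Herpud1, Atf5, Atf4, Xbp1, Ddit3, Pdia4, Trib3 after pup exposure. After control exposure Herpud1 stood second, and Atf4 and Xbp1 stood before Atf5.

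**Figure D1:**
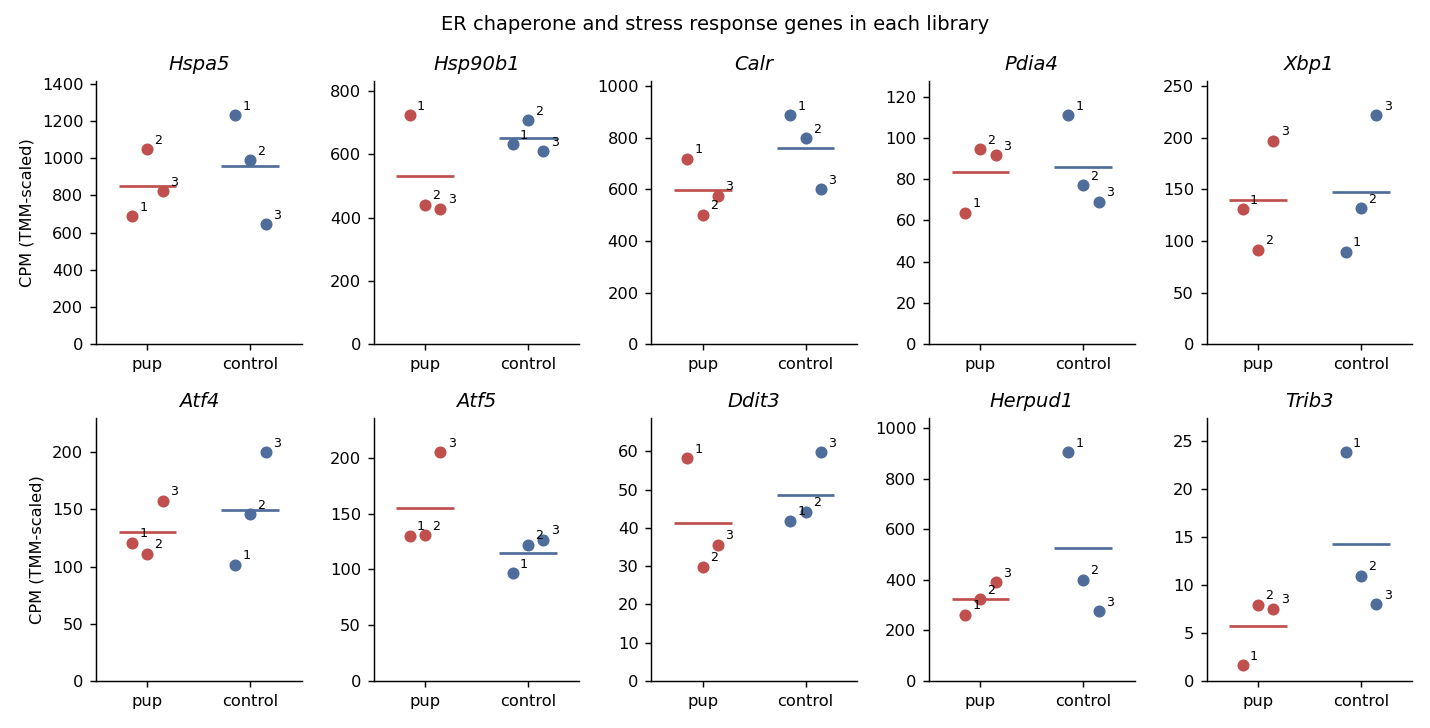
TMM-scaled CPM of each of the 10 genes (vertical axes, linear from 0) in the 3 pup exposure and 3 control exposure libraries, with points numbered by replicate and a bar at the group mean. The groups overlap in 8 genes, and do not overlap in Atf5 and, by a narrow margin, Trib3.

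The question put to the groups was whether pup exposure altered these genes in the precipitated RNA. In edgeR's quasi-likelihood test over all genes, 0 of 10 members passed a Benjamini-Hochberg adjusted p of 0.05 in either direction, and 0% of all genes tested did. At an unadjusted p under 0.05 there were again 0 of 10 members, where 6.31% of all genes were higher and 4.67% lower after pup exposure. Without the filter on low counts edgeR called 0 members, against 0.255% of genes higher and 0.247% lower. DESeq2 called 0 members, against 0.209% of genes higher and 0.322% lower, and limma-voom called 0 members, against 0.00645% higher and 0.0452% lower. The log2 fold change (pup exposure over control exposure) was negative in 9 of the 10 and the median was -0.22, where all genes tested had a median of 0.030. This split moved with the scaling: with library totals only, 4 of the 10 were negative and their median was 0.060, against 0.31 for all genes. Fewer cells of a type and less RNA per cell cannot be told apart in these bulk samples.

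Hspa5 (BiP, the main ER chaperone of the HSP70 family; chromosome 2 from 34771970 to 34777547, plus strand) had 688, 1046 and 821 CPM after pup exposure and 1230, 989 and 645 CPM after control exposure. The highest and the lowest library were both control exposure libraries, replicates 1 and 3, and the groups overlapped. Its log2 fold change was -0.16 (SE 0.42, edgeR adjusted p = 0.899), with a 95% interval of -1.08 to 0.75. The spread between libraries was thus larger than the difference between groups.

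Hsp90b1 (GRP94, the ER form of HSP90; chromosome 10 from 86690209 to 86705509, minus strand) had 723, 441 and 428 CPM after pup exposure and 632, 708 and 610 CPM after control exposure. Pup exposure replicate 1 was the highest library of all and the other 2 pup exposure libraries were the lowest. Its log2 fold change was -0.29 (SE 0.40, edgeR adjusted p = 0.795). An opposite-strand pseudogene, 1810014B01Rik, shares 415 exonic bases with Hsp90b1, and 13.8% of the 50-base words of its transcript also occur in other annotated transcripts on either strand, so its counts are less certain than those of Hspa5, with 0%.

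Calr (calreticulin, the lectin chaperone of the ER lumen; chromosome 8 from 84841850 to 84846934, minus strand) had 719, 502 and 576 CPM after pup exposure and 887, 798 and 602 CPM after control exposure. The overlap came from 1 pair of libraries, pup exposure replicate 1 being above control exposure replicate 3. Between groups the log2 fold change was -0.35 (SE 0.39, 95% interval -1.21 to 0.51, edgeR adjusted p = 0.746). Calr4 had 289, 300 and 252 CPM after pup exposure and 410, 397 and 238 CPM after control exposure (log2 fold change -0.31, SE 0.39). Per length, the ratio of Calr4 to Calr within a library was 0.364, 0.541 and 0.396 after pup exposure and 0.418, 0.450 and 0.358 after control exposure, so Calr was the more abundant calreticulin in each library.

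Pdia4 (ERp72, a disulfide isomerase; chromosome 6 from 47796141 to 47813430, minus strand) had 63.6, 94.6 and 91.6 CPM after pup exposure and 111, 77.2 and 69.1 CPM after control exposure. Its log2 fold change was -0.042 (SE 0.37, edgeR adjusted p = 0.971). Among all pairs of members Pdia4 and Hspa5 had the most similar profiles over the 6 libraries, with a root mean square difference of 0.17 in log2 CPM after each gene was centred on its own mean. Hsp90b1 and Calr came next at 0.19. Library scaling cancels in this measure.

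Xbp1 (the factor spliced by IRE1; chromosome 11 from 5520659 to 5525893, plus strand) had 131, 91.7 and 197 CPM after pup exposure and 89.4, 132 and 222 CPM after control exposure. Each group spanned more than its own mean-to-mean gap, and the log2 fold change was -0.078 (SE 0.45, 95% interval -1.05 to 0.89, edgeR adjusted p = 0.958). Atf4 (chromosome 15 from 80255184 to 80257541, plus strand), the factor translated when PERK is active, had 121, 111 and 158 CPM after pup exposure and 102, 146 and 200 CPM after control exposure. Its profile was close to that of Xbp1 (root mean square difference 0.21), both being highest in control exposure replicate 3 and next highest in pup exposure replicate 3. The log2 fold change of Atf4 was -0.20 (SE 0.39, edgeR adjusted p = 0.862).

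Atf5 (chromosome 7 from 44812256 to 44816658, minus strand) was the member with a positive log2 fold change. It had 130, 131 and 205 CPM after pup exposure and 96.7, 122 and 127 CPM after control exposure. All pup exposure libraries lay above all control exposure libraries, as they did in 10.1% of all genes tested, and they also did with library totals only. The gap between the nearest libraries was small, and pup exposure replicate 3 set much of the difference. The log2 fold change was 0.43 (SE 0.37, 95% interval -0.38 to 1.24, edgeR adjusted p = 0.659), and 0.19 without pup exposure replicate 3.

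Ddit3 (CHOP, a factor of prolonged ER stress; chromosome 10 from 127290774 to 127296288, plus strand) had 58.2, 29.9 and 35.6 CPM after pup exposure and 41.9, 44.3 and 59.8 CPM after control exposure. The 2 highest libraries, pup exposure replicate 1 and control exposure replicate 3, came from different groups. Its log2 fold change was -0.24 (SE 0.38, edgeR adjusted p = 0.827). Ddit3 shares 68 exonic bases with Mars on the opposite strand, and whether strand was used in counting is not given in the sources used here.

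Herpud1 (an ER membrane protein of the degradation machinery; chromosome 8 from 94386438 to 94395377, plus strand) had 262, 322 and 391 CPM after pup exposure and 906, 400 and 277 CPM after control exposure. Control exposure replicate 1 was far above the other 5 libraries, which lay between 262 and 400 CPM. The log2 fold change was -0.70 (SE 0.48, edgeR adjusted p = 0.588), and -0.054 without control exposure replicate 1.

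Trib3 (a pseudokinase induced by ATF4 and CHOP; chromosome 2 from 152337422 to 152344032, minus strand) had 30, 224 and 152 reads after pup exposure and 304, 122 and 51 reads after control exposure. Scaled, these were 1.61, 7.93 and 7.52 CPM after pup exposure and 23.8, 10.9 and 7.97 CPM after control exposure. All pup exposure libraries lay below all control exposure libraries, as they did in 9.6% of all genes tested, but pup exposure replicate 2 and control exposure replicate 3 nearly met. With library totals only, pup exposure replicate 3 had 7.28 CPM and control exposure replicate 3 had 4.82 CPM, so the groups overlapped. Trib3 had the smallest unadjusted p of the 10, with a log2 fold change of -1.33 (SE 0.63, 95% interval -2.71 to 0.056, edgeR adjusted p = 0.466). Without control exposure replicate 1 it was -0.73, and without pup exposure replicate 1 it was -0.89.

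**Figure D2:**
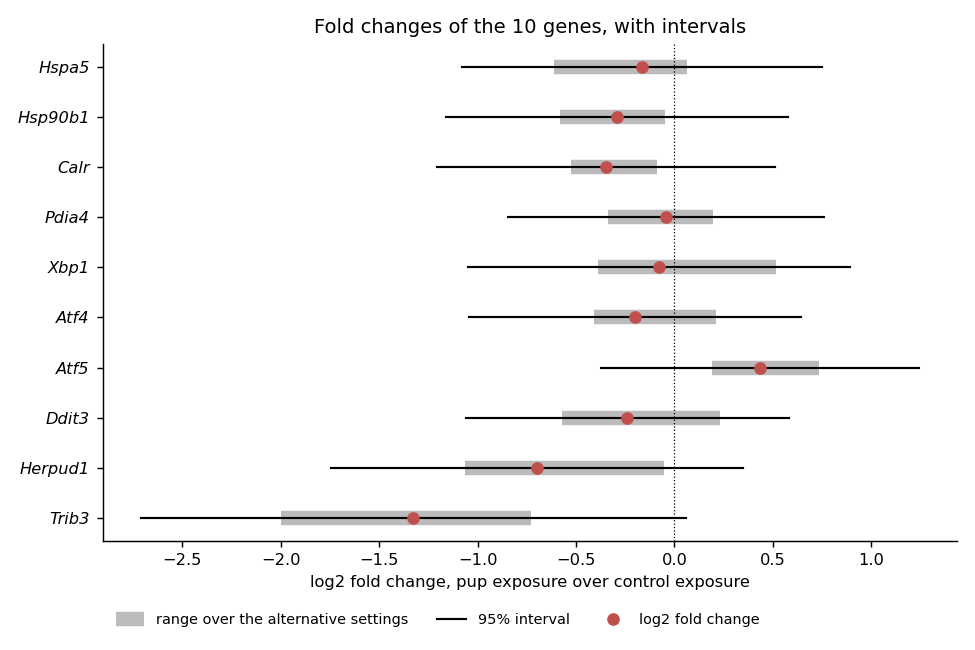
Log2 fold change of each of the 10 genes, pup exposure over control exposure (horizontal axis), with its 95% interval from edgeR (line) and the range over the 19 alternative settings (grey bar). Every interval includes 0, and the range of 5 genes (Hspa5, Pdia4, Xbp1, Atf4 and Ddit3) crosses 0.

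Ratios between members within a library do not depend on library scaling. Per length, Xbp1 to Hspa5 was 0.298, 0.138 and 0.378 after pup exposure and 0.114, 0.209 and 0.540 after control exposure. The groups overlapped, and the ratio ran almost in the order of gland RNA, with pup exposure replicate 2 and control exposure replicate 1 exchanged. Obp2a took 17.6%, 9.38% and 21.5% of counts after pup exposure and 13.0%, 17.5% and 26.0% after control exposure. Atf4 to Hspa5 had the same order, with 0.382, 0.232 and 0.418 after pup exposure and 0.180, 0.321 and 0.675 after control exposure. The libraries with the lowest and highest Obp2a share also differed in how short genes stood. The median level of genes in the shortest quintile of exon length, centred on each gene's mean, was -0.71 (log2) in pup exposure replicate 2 and 0.67 in control exposure replicate 3, and Xbp1 and Atf4 have shorter exons than Hspa5. The part of gland RNA and of gene length in these ratios was not tested.

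Atf5 to Atf4 was 0.932, 1.01 and 1.13 after pup exposure and 0.822, 0.723 and 0.547 after control exposure, so the groups did not overlap. Of all other genes tested, 9.45% had a ratio to Atf4 that was likewise above in every pup exposure library. Both factors have similar exon lengths, 1993 bases for Atf5 and 1725 for Atf4. Of the ratios among members that were computed, those of Ddit3 to Atf4, Trib3 to Ddit3 and Hsp90b1, Calr, Pdia4 or Herpud1 to Hspa5 overlapped between groups. The Atf5 ratio was picked out after these values were seen and has no test.

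**Figure D3:**
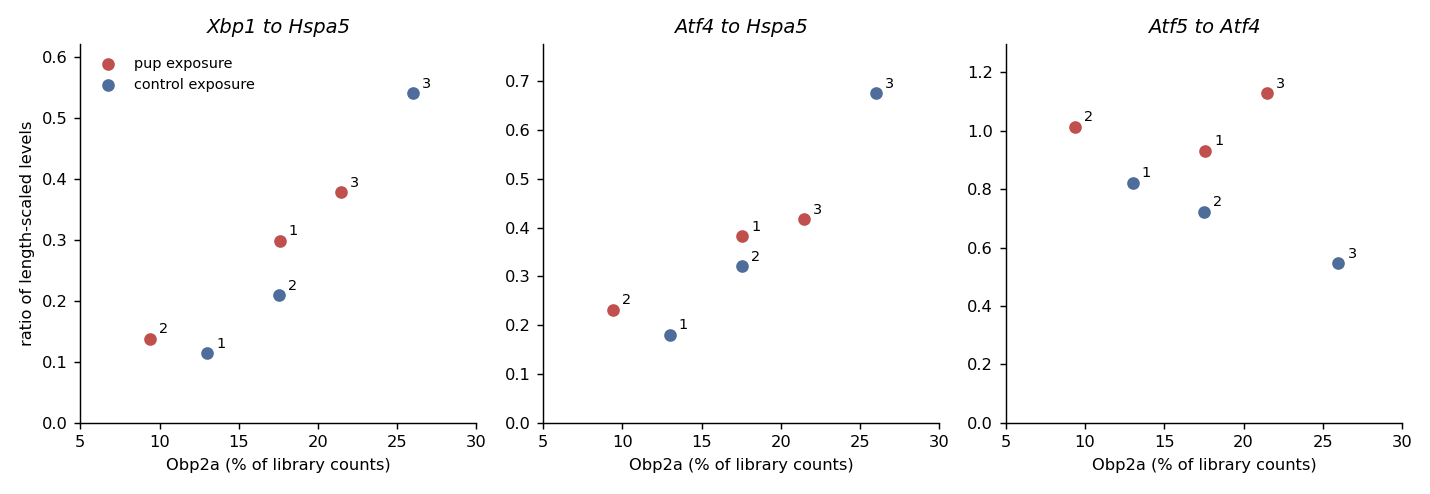
Ratio of length-scaled levels (vertical axes) for Xbp1 to Hspa5, Atf4 to Hspa5 and Atf5 to Atf4 in each library, against the percent of library counts taken by the gland gene Obp2a (horizontal axes), with points numbered by replicate. The first 2 ratios are highest in control exposure replicate 3, with 26.0% Obp2a, and the third lies between 0.932 and 1.13 in all pup exposure libraries, above the control exposure libraries.

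The rest of the pathway was described with lists chosen, like the members, with earlier results of these data known. The shares set beside those of all genes are therefore descriptive. Among the sensors and the proteases that cut ATF6, 6 of 7 genes were tested (Ern2 was not) and 6 of 6 had a positive log2 fold change, with a median of 0.90. All 6 were positive under the 4 other scalings, with a lowest value of 0.0036, but not under every alternative. In limma-voom, with the replicate block, without pup exposure replicate 3, and with pup exposure replicate 2 and control exposure replicate 3 both left out, 4 were positive and 2 negative. When thinned, with the length offset, and without pup exposure replicate 2, control exposure replicate 2 or control exposure replicate 3, 5 were positive and 1 negative. None of them passed the adjusted threshold in edgeR. At an unadjusted p under 0.05, 3 of 6 were higher (6.31% of all genes were), and in 4 of 6 all pup exposure libraries lay above all control exposure libraries (10.1% of all genes). Of the 6, 5 lay in the longest 2 of 5 quintiles of exon length, where 71.3% and 78.4% of all genes had a positive log2 fold change. Ern1 had 21.3, 15.3 and 14.8 CPM after pup exposure and 5.49, 5.38 and 5.78 CPM after control exposure. The control exposure libraries were tightly grouped and every pup exposure library was well above them (log2 fold change 1.63, SE 0.42, edgeR adjusted p = 0.378). DESeq2 gave Ern1 an adjusted p of 0.0498, with a range of 0.0498 to 0.831 over all alternatives. Eif2ak3 had 16.6, 24.7 and 20.9 CPM after pup exposure and 6.66, 7.62 and 14.2 CPM after control exposure (log2 fold change 1.13, SE 0.44, edgeR adjusted p = 0.424). Atf6 had 25.8, 52.3 and 28.2 CPM after pup exposure and 10.4, 23.8 and 21.4 CPM after control exposure (log2 fold change 0.94, SE 0.44, edgeR adjusted p = 0.463). Mbtps1, the first protease to cut ATF6, had a log2 fold change of 0.87 (SE 0.37).

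Ern1 to Xbp1, the ratio of the splicing enzyme to its target, was 0.0478, 0.0489 and 0.0220 after pup exposure and 0.0180, 0.0119 and 0.00764 after control exposure. The groups did not overlap, and 3.9% of all other genes had a ratio to Xbp1 separated in this way. Control exposure replicate 1 and pup exposure replicate 3 were the nearest libraries. Ern1 has 8157 bases of exon and Xbp1 2389, a difference that bears on the length pattern given for all genes.

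Other ER chaperones and folding enzymes split. Of 26 tested, 11 were positive and 15 negative in log2 fold change (median -0.045), and 0 passed in edgeR. At an unadjusted p under 0.05, 3 were higher and 1 lower, where 6.31% of all genes were higher and 4.67% lower. Without overlap between groups, 3 were higher and 5 lower, where 10.1% of all genes were higher and 9.6% lower. Hyou1, the HSP110-type partner of BiP, had 30.1, 51.3 and 53.5 CPM after pup exposure and 12.4, 16.7 and 14.7 CPM after control exposure. Its groups stood well apart (log2 fold change 1.62, SE 0.38, edgeR adjusted p = 0.375), and DESeq2 called it higher (adjusted p = 0.0213), with a range of 0.0213 to 0.831 over all alternatives. Canx, the membrane-bound relative of calreticulin, had 331, 463 and 378 CPM after pup exposure and 223, 169 and 250 CPM after control exposure (log2 fold change 0.87, SE 0.38, edgeR adjusted p = 0.447). P4hb, the founding disulfide isomerase, had 476, 444 and 704 CPM after pup exposure and 941, 1213 and 1416 CPM after control exposure. It pointed the other way (log2 fold change -1.14, SE 0.41, edgeR adjusted p = 0.424). Ero1lb, an oxidase that recharges disulfide isomerases, was at 0.99 (SE 0.36) and the co-chaperone Dnajb9 at 0.64 (SE 0.51), both log2 fold changes. The groups overlapped in Dnajb9.

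Of 17 genes of ER-associated degradation tested, 0 passed in edgeR, and at an unadjusted p under 0.05, 4 were higher and 2 lower, against 6.31% and 4.67% of all genes (median log2 fold change -0.36). Syvn1, the ubiquitin ligase HRD1 of this pathway, had 4.18, 21.3 and 39.7 CPM after pup exposure and 146, 172 and 86.9 CPM after control exposure. Even the highest pup exposure library was under the lowest control exposure library (log2 fold change -2.63, SE 0.65, edgeR adjusted p = 0.375). Without overlap between groups, 4 genes of this list were higher and 3 lower, against 10.1% and 9.6% of all genes. DESeq2 called Syvn1 lower (adjusted p = 0.00386), as did edgeR without a filter on low counts (adjusted p = 1.13e-05), with a range of 1.13e-05 to 0.831 over all alternatives. Edem1 and Edem3, lectins that pass glycoproteins to degradation, had log2 fold changes of 1.08 (SE 0.38) and 1.11 (SE 0.42).

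In the translocation list 17 of 18 genes were tested (Srp54a was not), with a median of -0.27 and 0 passing in edgeR. At an unadjusted p under 0.05, 2 were higher and 0 lower, against 6.31% and 4.67% of all genes. The signal peptidase subunit Spcs3 was at 1.27 (SE 0.50), and the translocon-associated subunits Ssr3 and Ssr2 were at 0.95 (SE 0.42) and -0.91 (SE 0.44), as log2 fold changes.

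Target genes of ATF4 and CHOP, downstream of the PERK branch, had 26 of 28 tested (Slc7a3 and Fgf21 were not), 13 positive and 13 negative, with a median log2 fold change of -0.042. Again 0 passed in edgeR; at an unadjusted p under 0.05 there was 1 higher and 0 lower, against 6.31% and 4.67% of all genes. That gene was Cebpb, at 1.02, 2.98 and 4.55 CPM after pup exposure and 0.392, 0.538 and 0.781 CPM after control exposure (log2 fold change 2.33, SE 0.98, edgeR adjusted p = 0.447). All its control exposure libraries were under 1 CPM, so this fold change rests on few reads. The PERK-branch markers Asns (asparagine synthetase, log2 fold change -0.54, SE 0.39), Chac1 (a glutathione-degrading enzyme, -0.91, SE 0.52), Ppp1r15a (the phosphatase subunit that ends the block, -0.37, SE 0.46) and Atf3 (0.15, SE 0.37) each had a 95% interval that included 0. Asns and Chac1 overlapped between groups, with 62.2, 105 and 68.2 CPM after pup exposure and 153, 102 and 87.0 CPM after control exposure for Asns. Vldlr (0.70, SE 0.36) and Slc3a2 (-0.69, SE 0.39) had the next smallest p in this list.

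Among 12 genes of the eIF2 kinases, phosphatase and exchange factor, 0 passed in edgeR, while 2 higher and 1 lower had an unadjusted p under 0.05, against 6.31% and 4.67% of all genes (median log2 fold change -0.12). Ppp1r15b, the constitutive phosphatase subunit, had a log2 fold change of 1.19 (SE 0.41) and the exchange factor subunit Eif2b4 one of -1.22 (SE 0.39). The other higher gene was Eif2ak3, which is also counted among the sensors. Ppp1r15a is likewise shared with the ATF4 and CHOP target genes, and Ero1l stands both among those targets and among the folding enzymes.

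**Figure D4:**
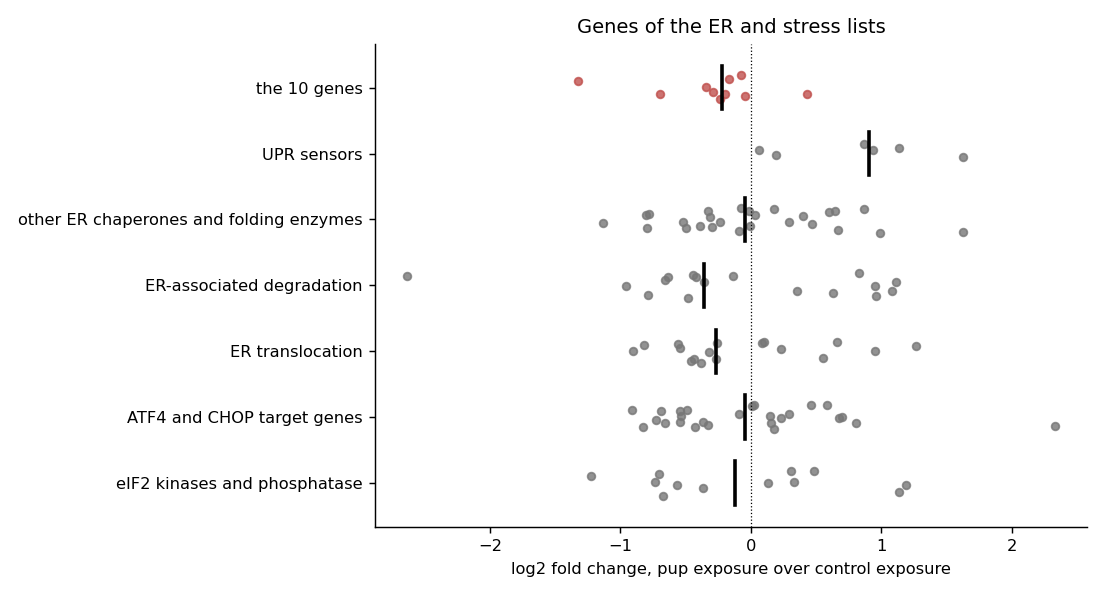
Log2 fold change, pup exposure over control exposure (horizontal axis), of every tested gene in the 10-gene set and 6 further ER and stress lists, with a black bar at each list's median. The sensors have a median of 0.90 and all lie right of 0, while the other lists spread to both sides.

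Gene length moved with these differences across the whole table. Of the 15308 tested genes with an annotated exon length, those in the shortest quintile (57 to 1613 bases) stood at a median of -0.51 in log2 fold change, with 21.2% positive. The median was -0.31 in the next quintile (1614 to 2585 bases), 0.11 in the middle, 0.38 in the fourth and 0.50 in the longest (5383 bases and more), where 78.4% were positive. Members are short: 8 of the 10 lay in quintiles 1 and 2, Hsp90b1 lay in the middle and Hspa5 in the fourth. Their median of -0.22 is thus to be read beside -0.31 for genes of 1614 to 2585 bases. The other lists divided by length in the same way. In quintiles 1 and 2, 1 of 11 other chaperones and folding enzymes and 0 of 5 degradation genes were positive, and in quintiles 4 and 5, 8 of 10 and 5 of 6 were.

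With an offset for exon length in each library, chosen after seeing the data, 5 of the 10 members were negative with a median of -0.024, and the sensors had a median of 0.47. The log2 fold change was then 0.73 for Atf5, -0.98 for Trib3, 1.19 for Ern1, 0.73 for Eif2ak3, 1.24 for Hyou1 and -2.89 for Syvn1, none with an edgeR adjusted p under 0.05. The values of Ern1, Eif2ak3 and Hyou1 were lower than without the offset, and those of Atf5 and Syvn1 were larger in size. Other long genes also fell. Atf6 moved from 0.94 to 0.43, Canx from 0.87 to 0.53 and Ero1lb from 0.99 to 0.53. Edem1 moved from 1.08 to 0.66, Edem3 from 1.11 to 0.60 and Vldlr from 0.70 to 0.24. Such an offset removes any difference that runs along length, whatever its source.

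**Figure D5:**
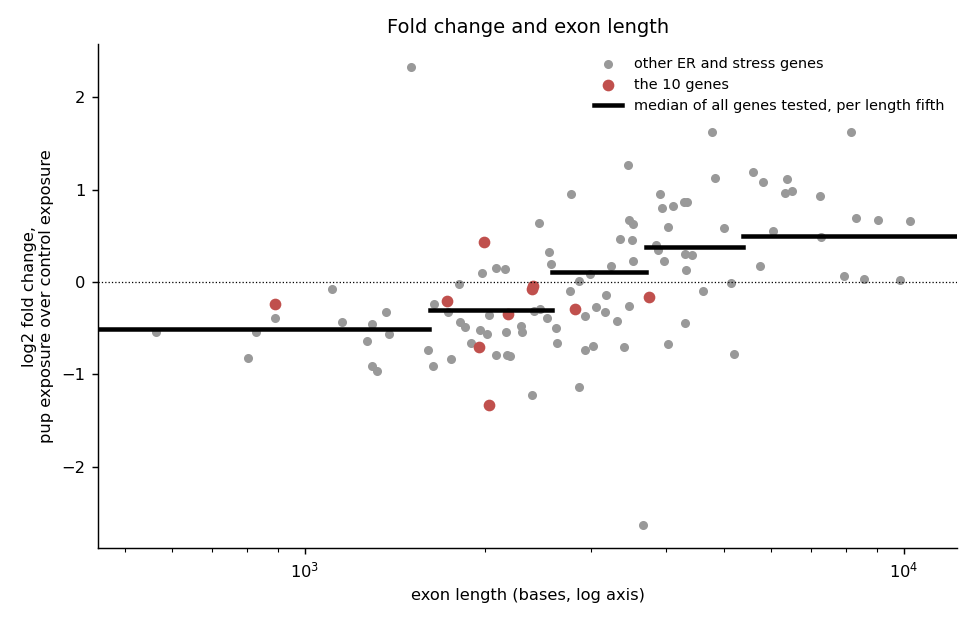
Log2 fold change, pup exposure over control exposure (vertical axis), against exon length in bases (horizontal log axis) for the 10 genes (red) and the other ER and stress genes (grey), with black bars at the median of all genes tested in each quintile of length. The bars run from -0.51 to 0.50, and 9 of the 10 genes lie under 0.

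Markers of cell types, some of which make much ER protein, were read in the same libraries. Plasma cells, whose antibody secretion depends on Xbp1, had a summed level of 8 markers of 146 to 342 CPM after pup exposure and 413 to 817 CPM after control exposure. These ranges did not overlap, 5 of 7 tested markers were likewise separated (9.6% of all genes were), and Tnfrsf17 and Pou2af1 were at 0 in at least 1 library. Gland markers, 17 genes led by Obp2a, summed to 191354 to 463191 CPM after pup exposure and 280146 to 913019 CPM after control exposure, with overlap; Bpifb9a was at 0 in a library. Sustentacular cell markers (7 genes, led by Cbr2, with Ermn at 0 in a library) summed to 1586 to 2324 CPM after pup exposure and 3887 to 4490 CPM after control exposure. Red cell markers (52.6 to 168 CPM after pup exposure, 205 to 591 CPM after control exposure) and immature neuron markers (513 to 589 CPM after pup exposure, 740 to 768 CPM after control exposure) were also separated. As unscaled shares of library counts, the immature neuron markers overlapped and the other 3 separated lists did not. Sums for mature, apical and basal vomeronasal neurons, macrophages, endothelium and main olfactory neurons overlapped. Macrophage markers were uneven, at 1136 CPM in pup exposure replicate 3 and 554 CPM in control exposure replicate 1. The other libraries had 70.4 to 154 CPM. Main olfactory neuron markers had 695 CPM in pup exposure replicate 2 and 245 to 307 CPM in the other libraries. The tested markers of the separated lists were short, as were the gland markers, which overlapped. Median exon length was 1698 bases for plasma cells, 1927 for sustentacular cells, 701 for red cells and 2073 for immature neurons. It was 925 bases for gland markers and 3118 for all genes tested, so these sums are to be read beside the length pattern above. The part of length in these sums, and of these cells in the values of the 10 genes, was not tested.

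Among the genes most like Hspa5 over the 6 libraries, of 3350 others with a mean of at least 5 log2 CPM, were Psmf1, Rpn2 and Pigk. Their root mean square differences from Hspa5 were 0.063, 0.082 and 0.11 in centred log2 CPM. Rpn2 is a subunit of the ER oligosaccharyltransferase, Pigk an enzyme of membrane anchor attachment in the ER, and Psmf1 a proteasome inhibitor. For Atf4 the nearest were Chmp5, Ntrk2, Mycbp and Pkib, at 0.11, 0.11, 0.13 and 0.13.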

How the data were processed

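Ribosome-bound RNA was precipitated from vomeronasal organ lysates with an antibody to phosphorylated S6 and made into sheared low-input cDNA libraries, per the labels' protocols. The authors deposited raw read counts for each Ensembl gene. Per the submitters' processing notes the genome build is GRCm38. No aligner, counter or annotation release is named in the sources used here. GENCODE M21 named 36639 of 38561 IDs and gave gene positions and exon lengths (union of exons of its basic set). RefSeq gave promoters.

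Genes were kept by filterByExpr (minimum count 10, minimum total 15), scaled by TMM and tested with edgeR 4.0.16 (R 4.3.3) in a design with the group alone, over all 6 libraries. The threshold was a Benjamini-Hochberg adjusted p of 0.05. Standard errors and 95% intervals came from the F statistic. CPM and RPKM are TMM-scaled. Between replicates of a group, chi-square divided by its degrees of freedom was 86.2 to 300, and no library was treated as a repeat deposit. The common biological coefficient of variation was 0.535, which limits precision more than depth does.

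Alternatives were scaling by upper quartile, by RLE, by library totals alone or by totals that leave out the 50 most abundant genes, no filter, a stricter filter (50 counts in all, and 1 CPM in at least 3 libraries), limma-voom (limma 3.58.1) unweighted or with sample weights, DESeq2 1.42.0, a block on replicate number, thinning to 10590716 counts, and leaving out each library. The length offset (lowess, span 0.3) and leaving out 2 libraries together were chosen after seeing the data. The fits were tested on simulated data. Members and lists were chosen with earlier results of these data known. Named genes were the 10 members, the 3 of each list with the smallest p, and Calr4, Ern1, Eif2ak3, Atf6, Canx, Hyou1, Dnajb9, Asns, Chac1, Ppp1r15a and Atf3. The 4 genes nearest in profile to Hspa5 and to Atf4 were also named, except 1 that is not reported here.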

Additional observations from a re-analysis of the deposited data

How the results depend on the processing

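No member passed an adjusted p of 0.05 under any of the 19 alternatives. Over all genes, where edgeR called 0, the count was 120 (61 higher, 59 lower) without a filter, 127 (50 and 77) in DESeq2, 8 (1 and 7) in limma-voom, 12 (1 and 11) with sample quality weights, and 6 (1 and 5) with the length offset; it was 0 with each library left out. Of 779 gene results under alternatives, 748 kept their direction and side of the threshold, 5 crossed it (Ern1, Hyou1 and Syvn1 in DESeq2, Hyou1 and Syvn1 without a filter) and 26 turned sign. None of those that turned had been called, and their cause was not tested. With library totals only the median of all genes was 0.31, and Hspa5 was at 0.063, Pdia4 at 0.20, Xbp1 at 0.27, Atf4 at 0.14 and Ddit3 at 0.057, all under that median. Without the 50 most abundant genes in the totals Pdia4 was at 0.040 and Xbp1 at 0.029, with quality weights at 0.14 and 0.13, and Pdia4 was at 0.015 when thinned. With the length offset Pdia4 was at 0.13, Xbp1 at 0.040, Atf4 at 0.21 and Ddit3 at 0.23. With control exposure replicate 3 and pup exposure replicate 2 both left out, Xbp1 was at 0.52, Atf4 at 0.12 and Ddit3 at 0.078. With single libraries left out, Hspa5 ran from -0.41 to 0.063, Pdia4 from -0.20 to 0.19, Xbp1 from -0.39 to 0.30, Atf4 from -0.41 to 0.035, Ppp1r15a from -0.75 to 0.23 and Atf3 from -0.082 to 0.34. Same-numbered libraries deviated together with correlations of -0.035, 0.18 and 0.075 for numbers 1, 2 and 3, so the numbers were not taken as pairs; with the replicate block 0 genes and 0 members were called, and the members' median was -0.22.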

Other observations

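Chaperones outside the ER were read for comparison. Of 14 cytosolic heat shock genes 13 were tested (Hspa1b was not), with a median log2 fold change of 0.053, and 0 passed in edgeR; at an unadjusted p under 0.05, 1 was higher and 0 lower, against 6.31% and 4.67% of all genes. That gene was Hsph1, with 19.5, 25.5 and 19.3 CPM after pup exposure and 8.54, 9.77 and 15.3 CPM after control exposure (log2 fold change 0.94, SE 0.41). The small heat shock genes Hspb8 and Hspb1 pointed in opposite directions, at -1.27 (SE 0.64) and 1.57 (SE 0.83). With single libraries left out, Hspb8 ran from -1.74 to -0.59 and Hspb1 from 1.05 to 2.40. Hspb1 was at 0.314, 1.70 and 3.59 CPM after control exposure, so its fold change rests on few reads. Of 8 mitochondrial chaperones and proteases tested, 0 passed in edgeR and the median was 0.073; at an unadjusted p under 0.05, 0 were higher and 1 lower, against the same shares. The protease subunit Clpp had 36.6, 18.2 and 32.7 CPM after pup exposure and 65.3, 41.7 and 56.1 CPM after control exposure, with no overlap (log2 fold change -0.90, SE 0.39). Of all genes tested, 9.6% were lower without overlap. The chaperones Hspa9 and Trap1 were at 0.41 (SE 0.38) and 0.37 (SE 0.40) in log2 fold change.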
